A study of Mus musculus with 12 samples.

Results

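Neurospheres grown from mouse ventral midbrain were exposed to CT99021, an inhibitor of the kinase GSK3, and their transcripts were compared with those of spheres given the solvent. The comparison uses 6 of the 12 sequencing libraries of the study, 3 labelled CT99021 and 3 labelled Control, and each CT99021 library was set against the Control library that carries the same replicate number. The cells came from CD-1 embryos at stage E11.5. They grew as spheres for 3 days and then spent 5 h in N2 medium with the compound or with DMSO, per the labels' protocols, while the treatment label of the controls reads "none". No transgene or mutation is named for any group. The doses, and whether a replicate number stands for a culture, a litter or a day, are not stated in any source used here. The p-values therefore reflect variation among libraries that could be technical. The other 6 libraries received GW3965, an agonist of liver X receptors, alone or together with CT99021, and serve below as a second setting for the same inhibitor.

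GSK3 is a constitutively active kinase with 2 forms, encoded by Gsk3a and Gsk3b. In the Wnt pathway it sits in a destruction complex with the scaffolds Axin and APC and marks beta-catenin for degradation; when it is inhibited, beta-catenin enters the nucleus and acts with TCF/LEF factors on target genes, many of which encode feedback inhibitors of the pathway. GSK3 also phosphorylates glycogen synthase, Myc proteins and proteins of the insulin and mTOR pathways. In the ventral midbrain, Wnt1 and beta-catenin signalling are known for their part in the specification of dopaminergic progenitors.

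The 6 libraries held 11964227 to 21314093 gene counts. Levels are CPM, counts scaled to a common library size, and the values of 3 libraries are always given in the order of their numbers, 1 to 3. Neural progenitor and midbrain genes were present in every library: Nes ran from 399 to 883 CPM, Sox2 from 103 to 239, En1 from 61.1 to 167 and Otx2 from 59.4 to 136. The floor plate factors Foxa2 and Lmx1a were low in libraries numbered 1 and 2, at 5.73 to 7.96 CPM and 10 to 19.1 CPM, and higher in those numbered 3, at 28.2 to 33.5 and 37.2 to 42.0 CPM. Genes of other cells were also present, with erythroid genes summing to 11000 to 30600 CPM in controls and 10100 to 23600 CPM with CT99021, mesenchymal genes to 408 to 3340 and 542 to 4470 CPM, and microglial genes to 30.2 to 55.3 and 27.8 to 41.2 CPM. In such bulk samples, fewer cells of a type and less RNA per cell cannot be told apart. The library CT99021 1 stood apart in Lars2, which encodes a mitochondrial leucyl-tRNA synthetase and took 7.946% of its gene counts against 0.0365% to 0.1132% in the other 5, so that results are also given without it. That library also had the fewest gene counts of the 6, the most genes with a count, 19148, and the highest share of repeat sequences, 0.6426%.

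After 5 h of CT99021, 1285 of the 15608 genes tested rose (8.23%) and 1185 fell (7.59%), together 15.8%, at an adjusted p under 0.05 in edgeR's quasi-likelihood test with the replicate number as a block. Most of these changes were small. The median log2 fold change was 0.40 among genes that rose and -0.54 among those that fell, and 0.02 over all genes tested. Only 69 genes rose (0.442%) and 156 fell (0.999%) by 1 log2 unit or more. Of the 2470 genes called, 2464 moved in the same direction in all 3 numbered pairs. That follows in large part from selecting them by a test with these numbers as a block, and is no separate support. The 3 libraries of each group did not overlap in 14.8% of all genes tested, with CT99021 above control in 7.22% and below it in 7.62%.

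These calls rest on the pairing. With the block removed, 9 genes passed (0.0577%), all of them lower, and an unadjusted p under 0.05 was reached by 1514 genes, compared with 4812 in the paired fit. The biological coefficient of variation was 33.4% without the block and 12.7% with it. Counts also moved with single libraries: 350 genes rose and 397 fell without Control 1, 273 and 379 without Control 2, 451 and 663 without CT99021 2, and 550 (3.47%) and 525 (3.32%), together 6.79%, without CT99021 1, the library with high Lars2, where 1048 of the 2470 genes were called again. Leaving out both libraries numbered 1 left 14 higher and 41 lower, and leaving out both numbered 2 left 17 and 77, whereas leaving out both numbered 3 gave 1954 (12.6%) and 1915 (12.4%), together 25.0%. With library totals in place of TMM factors, 641 genes rose and 1383 fell, so that 31.7% of calls were increases against 52.0% in the main scaling, and the median of all genes moved to -0.05. The adjusted p-values below are from the edgeR fit with the block, and "every single omission" means leaving out any 1 of the 6 libraries in turn.

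**Figure D1:**
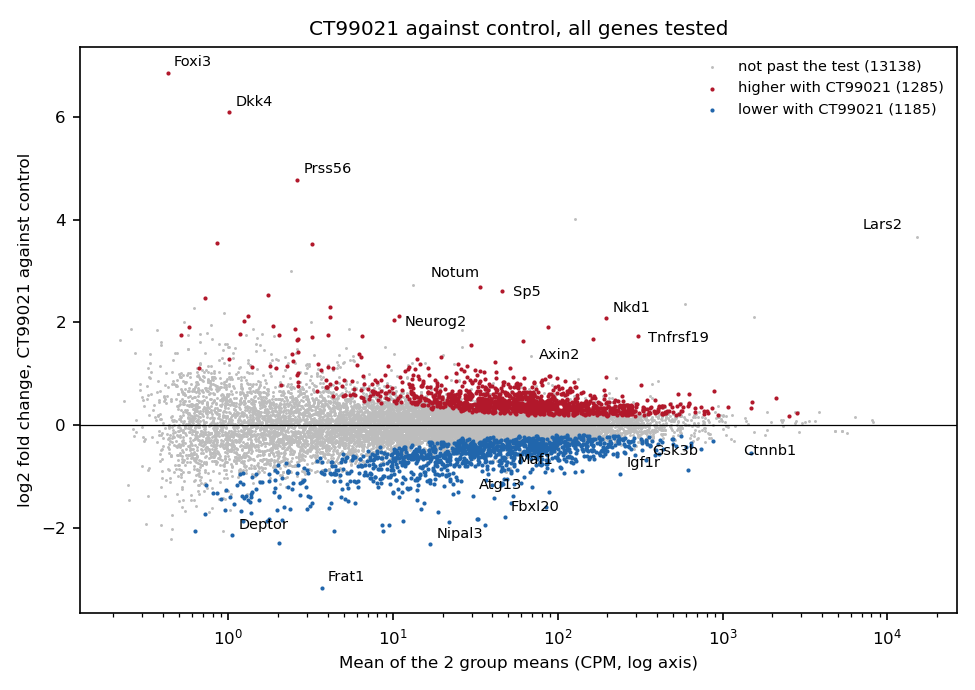
Each point is 1 of the 15608 genes tested, with its mean level in CPM on a log axis and its log2 fold change with CT99021 on the other axis; red marks the 1285 genes that rose and blue the 1185 that fell. Most coloured points lie close to 0, the Wnt feedback genes Sp5, Nkd1 and Tnfrsf19 stand well above the rest at their level, Frat1 is the lowest point among those past the test, and Lars2 at the far right did not pass.

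Feedback genes of the Wnt pathway had the highest median change of the 53 gene lists. Of 17 such genes tested, 12 rose (70.6%, against 8.23% of all genes) and 1 fell, with a median log2 fold change of 1.32. The 12 were Dkk4, Notum, Sp5, Nkd1, Tnfrsf19, Axin2, Lef1, Rnf43, Nkd2, Tcf7, Apcdd1 and Znrf3. Between 10 and 12 of them passed when any 1 library was left out, and 10 passed without CT99021 1. The promoters of 2 of them held the core letters to which TCF/LEF factors are known to bind, CTTTGAT or ATCAAAG on either strand, and are shown because both genes rose more than 3-fold. The sequences are the 250 bases before a RefSeq start site in GRCm38.p6, with the matching letters in capitals, at chr2:70474673-70474922 on the plus strand for Sp5 and at chr14:61037988-61038237 on the minus strand for 1 of the start sites of Tnfrsf19.
Sp5: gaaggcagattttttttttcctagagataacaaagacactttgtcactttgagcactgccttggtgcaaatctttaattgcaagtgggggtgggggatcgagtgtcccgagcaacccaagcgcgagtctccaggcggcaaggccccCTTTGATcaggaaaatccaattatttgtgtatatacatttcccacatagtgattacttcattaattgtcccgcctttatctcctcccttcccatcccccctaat
Tnfrsf19: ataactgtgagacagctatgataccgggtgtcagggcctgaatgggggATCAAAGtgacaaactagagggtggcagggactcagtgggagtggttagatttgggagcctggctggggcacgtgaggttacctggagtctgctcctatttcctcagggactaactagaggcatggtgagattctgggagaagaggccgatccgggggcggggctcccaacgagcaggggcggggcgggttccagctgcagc
Only 8 of the 13 Wnt feedback genes that passed had a promoter in the table, which is 61.5% and too few for a share. The same letters occurred in 3.73% of all 32851 mouse promoters of 300 bases there. Of all genes called higher that had a promoter there, 26 of 1024 held them (2.54%), against 3.04% of the tested genes with one. Among genes higher by 1 log2 unit or more, it was 4 of 51 (7.84%). A promoter was matched for 77.0% of the tested genes, 79.7% of those called higher and 73.9% of the last set, too few for a firm share. A match is a description of the letters and not evidence of binding.

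Sp5 encodes a zinc finger repressor that Wnt signalling induces directly. It was at 10.7, 14.2 and 7.54 CPM in the controls and at 94.6, 135 and 14.3 CPM with CT99021, a log2 fold change of 2.60 ± 0.37 (SE; adjusted p = 0.00273). The CT99021 library numbered 3 was far below the other 2 and just above the highest control. Tnfrsf19, a receptor of the TNF family also known as Troy, stood at 101, 195 and 93.5 CPM in controls and 498, 748 and 195 CPM with CT99021 (1.74 ± 0.23, adjusted p = 0.0019). Its CT99021 library 3 was no higher than Control 2 to 3 digits, and the increase shows within the pairs. Nkd2, which like its relative Nkd1 encodes an inhibitor that binds Dishevelled, went from 11.0, 4.65 and 16.7 CPM to 24.1, 10.8 and 50.4 CPM (1.32 ± 0.20, adjusted p = 0.00326). Znrf3, a ubiquitin ligase that removes Wnt receptors from the membrane, went from 54.3, 71.3 and 44.6 CPM to 92.2, 108 and 61.3 CPM (0.61 ± 0.08, adjusted p = 0.00149). Sp5, Tnfrsf19, Nkd2 and Znrf3 passed in every single omission. Rnf43, the paralog of Znrf3, also rose, by 1.38 ± 0.34 (adjusted p = 0.0247), but the call was lost in 5 of the 6 omissions, at adjusted p = 0.054 to 0.129, all but that of Control 3. Apcdd1, a membrane inhibitor of Wnt signalling, showed the same weakness, with 602, 1142 and 248 CPM in controls, 1033, 1916 and 349 CPM with CT99021, an adjusted p of 0.0472 and 5 omissions, all but that of Control 3, at 0.0973 to 0.199.

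Dkk4, a secreted inhibitor of the Wnt co-receptor, was close to undetected in the controls. It had 1 count over the 3 control libraries and 89 over the 3 CT99021 libraries, a ratio of 116 with an exact 95% interval of 20.2 to 4613 that covers counting error only. Foxi3, a forkhead factor that is on no list and was chosen after its values were seen, had 0 counts in the controls and 36 with CT99021, at 0.827, 0.818 and 0.925 CPM. Against a floor of 3 counts over the control group it was at least 15.6-fold higher, and the exact 95% interval of the ratio, for counting error only, begins at 12 (adjusted p = 0.0125, and 0.0525 without Control 1 and 0.0501 without Control 2).

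Members of the list that are often counted among Wnt targets did not all move. Myc fell by 0.57 ± 0.15 (adjusted p = 0.0294, which rose to between 0.0589 and 0.145 without Control 1, Control 2 or any 1 of the CT99021 libraries). Dkk1 had a log2 fold change of 0.81 (adjusted p = 0.196), Wif1 of 0.70 (0.127), the cyclin gene Ccnd1 of 0.34 (0.111) and Lgr5, a receptor of R-spondins, of 0.12 (0.487), and none of these passed.

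The size of the response differed between pairs. The median log2 ratio of CT99021 to control, with 0.5 CPM added to each level, over the 12 Wnt genes was 1.66 for the libraries numbered 1, 1.88 for those numbered 2 and 1.08 for those numbered 3, and 10 of the 12 had their smallest ratio in pair 3. Sp5 rose 8.8-fold and 9.48-fold in pairs 1 and 2 and 1.89-fold in pair 3, and Tnfrsf19 rose 4.95-fold, 3.83-fold and 2.09-fold. Notum, a secreted enzyme that inactivates Wnt proteins, was an exception with ratios of 5.75, 6.7 and 6.19, and so was Nkd2 with 2.19, 2.33 and 3.03. The 69 genes that rose by 1 log2 unit or more had medians of 1.25, 1.26 and 0.97, and 46 of them had their smallest change in pair 3. The 2 libraries numbered 3 also had the highest Foxa2 and Lmx1a of their groups, and the part of their cell makeup in these sizes was not tested.

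**Figure D2:**
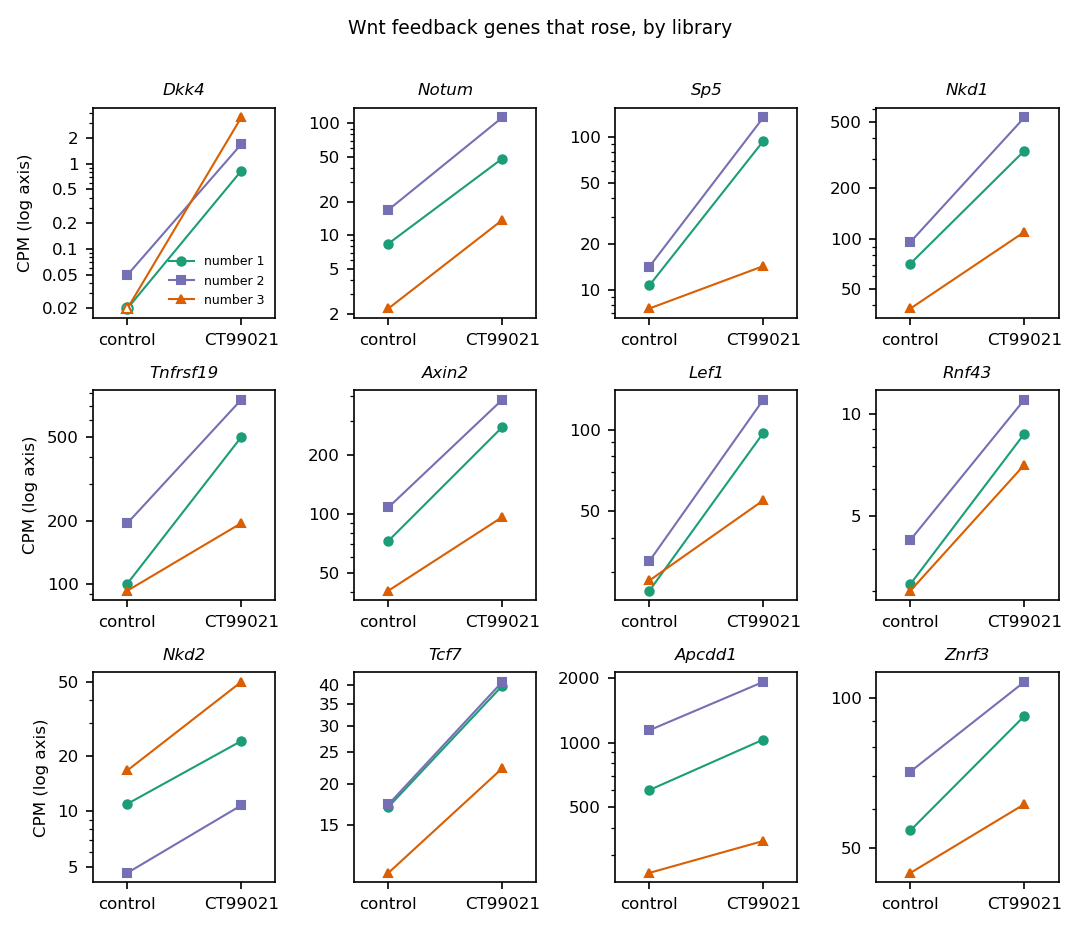
Level in CPM, on log axes, of the 12 Wnt feedback genes that rose, with a line from the control to the CT99021 library of each number. Every line rises, the line of the libraries numbered 3 is the flattest for Sp5, and open markers at the bottom of the Dkk4 panel stand for control libraries with 0 counts.

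The 4 TCF/LEF factors, which bring beta-catenin to DNA, split by type. Lef1 and Tcf7, both counted above, rose, and Tcf7 went from 17.0, 17.3 and 10.7 CPM to 39.8, 40.9 and 22.3 CPM without overlap (1.19 ± 0.10, adjusted p = 1.7e-04, passing in every single omission). Tcf7l1, mostly known as a repressor, fell by 0.55 ± 0.11 (adjusted p = 0.0109), and Tcf7l2 by 0.40 ± 0.10 (adjusted p = 0.0273). The fall of Tcf7l1 missed the threshold without Control 1 (0.0591), Control 2 (0.0649), CT99021 1 (0.0536) or CT99021 2 (0.0564), and that of Tcf7l2 in 5 omissions, all but that of CT99021 3, at 0.0589 to 0.133.

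Among 18 Wnt receptor genes, 3 rose (16.7%, against 8.23% of all genes) and 0 fell. Fzd10, a Frizzled receptor, was at 33.8, 45.1 and 19.6 CPM in controls and 138, 244 and 44.2 CPM with CT99021 (1.91 ± 0.24, adjusted p = 0.00153, in every single omission). Its pairs 1 and 2 rose far more than pair 3, where the CT99021 value lay just under that of Control 2. Ror2, a receptor kinase for Wnt5a, rose by 1.15 ± 0.24 (adjusted p = 0.0116, 0.0623 without Control 2 and 0.0501 without CT99021 1), and Ryk by 0.22 ± 0.06 (adjusted p = 0.0431, lost in 5 omissions at 0.069 to 0.188, all but that of CT99021 3). Of 16 Wnt ligands, 3 fell (18.8%, against 7.59% of all genes) and 0 rose. Wnt3a and Wnt1 passed in every single omission, with log2 fold changes of -2.30 ± 0.34 and -1.95 ± 0.29. Wnt7a went from 11.7, 8.85 and 8.33 CPM to 5.05, 4.34 and 5.35 CPM (-0.93 ± 0.21, adjusted p = 0.0158), and its call was lost without Control 1, Control 2, CT99021 1 or CT99021 2, at 0.0664 to 0.0799.

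Transcripts of the beta form of the kinase and of beta-catenin differed little from control. Gsk3b was at 348, 323 and 324 CPM in controls and 332, 370 and 292 CPM with CT99021 (-0.01 ± 0.08, adjusted p = 0.954), and Ctnnb1, which encodes beta-catenin, had a log2 fold change of -0.02 ± 0.07 (adjusted p = 0.895). Gsk3a rose by 0.23 ± 0.06 (adjusted p = 0.0389), and missed the threshold without Control 1 (0.182), Control 2 (0.158), CT99021 1 (0.0915) or CT99021 2 (0.148). Of 17 genes of the destruction complex and of GSK3 binding, 3 rose (17.6%, against 8.23% of all genes) and 4 fell (23.5%, against 7.59%). The largest falls were those of Frat1 and Frat2, which encode proteins that bind GSK3 and keep it from Axin. Frat1 stood at 6.53, 6.68 and 6.74 CPM in controls and at 0.367, 0.881 and 0.925 CPM with CT99021 (-3.17 ± 0.45, adjusted p = 0.00262), and Frat2 at 5.98, 6.28 and 13.4 CPM and 1.29, 2.2 and 5.95 CPM (-1.53 ± 0.24, adjusted p = 0.00395). Both passed in every single omission, and Frat1 was without overlap by a wide margin, whereas for Frat2 the highest CT99021 library lay just below the lowest control.

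The Frat1 and Frat2 promoters are shown because these genes fell together and their start regions share sequence. Over their RefSeq start sites in GRCm38.p6, an identical run of at least 63 bases begins 13 bases before the start of Frat1 and 17 before that of Frat2. The run reaches the end of the Frat1 stretch searched, 50 bases after its start, so its full length is not known here. Reads from that run cannot be assigned to 1 of the genes by their letters. Within it lies TGTTTAC, a core to which forkhead factors are known to bind (GTAAACA on the other strand), in capitals. The printed part runs from 250 bases before the start to the end of these letters, at chr19:41829720-41829978 on the plus strand for Frat1 and chr19:41848128-41848382 on the minus strand for Frat2.
Frat1: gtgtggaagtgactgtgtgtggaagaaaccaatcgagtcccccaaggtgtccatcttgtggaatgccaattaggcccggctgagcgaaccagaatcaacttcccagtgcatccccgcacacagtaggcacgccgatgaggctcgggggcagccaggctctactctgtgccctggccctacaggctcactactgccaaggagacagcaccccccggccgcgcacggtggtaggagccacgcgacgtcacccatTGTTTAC
Frat2: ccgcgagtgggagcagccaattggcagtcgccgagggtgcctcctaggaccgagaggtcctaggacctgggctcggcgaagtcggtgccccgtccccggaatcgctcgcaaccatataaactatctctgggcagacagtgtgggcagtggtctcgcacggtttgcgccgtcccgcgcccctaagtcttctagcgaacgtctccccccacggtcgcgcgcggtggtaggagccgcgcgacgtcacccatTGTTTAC
The same letters occurred in 3.65% of all promoters in the table. None of the called autophagy genes that had a promoter there (10 of 14), and none of the called insulin, mTOR and FoxO genes (7 of 10), held them in that window, which says nothing about a factor. Over all genes called lower that had a promoter there, 67 of 912 held them (7.35%), against 3.08% of the tested genes with one, with 77.0% of the genes matched in either set, too few for a firm share.

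Growth control genes of the insulin and mTOR pathway were the next large group with falls. This pathway senses growth factors and nutrients, and FoxO factors act where it is low. Of 20 genes on the list of insulin receptors, mTOR inhibitors and FoxO factors, 9 fell (45.0%, against 7.59%) and 1 rose, with a median log2 fold change of -0.30. The count of falls was 5 without Control 1 or Control 2 and 7 or 8 in the other omissions. Igf1r, the receptor of insulin-like growth factors, was at 266, 282 and 394 CPM in controls and at 124, 169 and 192 CPM with CT99021 (-0.95 ± 0.08, adjusted p = 1.8e-04). Irs2, the adaptor below that receptor, went from 100, 136 and 91.0 CPM to 49.2, 73.5 and 52.0 CPM (-0.91 ± 0.10, adjusted p = 9.3e-04). In both genes all CT99021 libraries lay below all controls, and both passed in every single omission. Pik3ip1, an inhibitor of PI3 kinase, fell by 0.87 ± 0.16 (adjusted p = 0.00779) and Foxo4 by 0.66 ± 0.12 (adjusted p = 0.00712), also in every omission. Foxo4 and the other FoxO genes and Insr are given here after their values were seen. Insr, the insulin receptor, fell by 0.48 ± 0.09 (adjusted p = 0.00779, 0.0513 without Control 1) and Foxo3 by 0.48 ± 0.11 (adjusted p = 0.0206, and 0.054 to 0.0912 without Control 1, Control 2, Control 3 or CT99021 3), while Foxo1 had a log2 fold change of 0.15 (adjusted p = 0.409). Deptor, which binds and inhibits mTOR, was low, at 2.13, 1.68 and 1.35 CPM in controls and 0.459, 0.377 and 0.33 CPM with CT99021 (-2.14 ± 0.43, adjusted p = 0.0103, and 0.0585 without Control 2).

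Genes of autophagy, the process that delivers cell contents to the lysosome, fell as well. Of 38 tested, 13 fell (34.2%, against 7.59% of all genes) and 1 rose, with a median log2 fold change of -0.21. Between 11 and 13 fell in each single omission. In 13 of the 38 all CT99021 libraries lay below all controls, as in 7.62% of all genes tested. Atg13, a subunit of the kinase complex that starts autophagy, passed under every alternative, going from 43.5, 40.8 and 47.5 CPM to 16.7, 15.5 and 18.4 CPM (-1.38 ± 0.09, adjusted p = 4.7e-05), and including the fit without the block. It is listed on chromosome 2 at position 91514768 of mm9. The kinases of the same complex, Ulk1 and Ulk2, fell by 0.54 ± 0.07 and 0.66 ± 0.08 (adjusted p = 0.00193 and 0.00162). Wdr45, which takes part in the growth of the autophagosome, went from 15.4, 16.1 and 27.8 CPM to 7.44, 7.74 and 8.79 CPM (-1.26 ± 0.16, adjusted p = 0.00149). The cargo receptors Bnip3l and Nbr1 fell too, Bnip3l from 141, 146 and 215 CPM to 80.3, 84.4 and 97.4 CPM (-0.92 ± 0.09, adjusted p = 4.4e-04) and Nbr1 by 0.89 ± 0.06 (adjusted p = 7.9e-05). Gabarapl1, which encodes a protein attached to autophagosome membranes, went from 113, 89.7 and 111 CPM to 74.8, 57.9 and 61.3 CPM (-0.69 ± 0.11, adjusted p = 0.00436). All of these passed in every single omission, and Ulk1, Ulk2 and Gabarapl1 were named after their values were seen. Other members had smaller values, as in the cargo receptor Sqstm1 (-0.15, adjusted p = 0.403), Becn1 (0.16) and Gabarap (0.02), which did not pass. Atg16l1 was the member that rose, by 0.52 ± 0.11 (adjusted p = 0.0122, 0.0704 without Control 1, 0.0657 without Control 2 and 0.0505 without CT99021 1). Of 46 genes of lysosome enzymes and membranes, 7 rose (15.2%, against 8.23% of all genes tested) and 1 fell, with a median of 0.11, and 1 was higher without Control 2, 2 without CT99021 2, and 3 without Control 1 or Control 3.

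**Figure D3:**
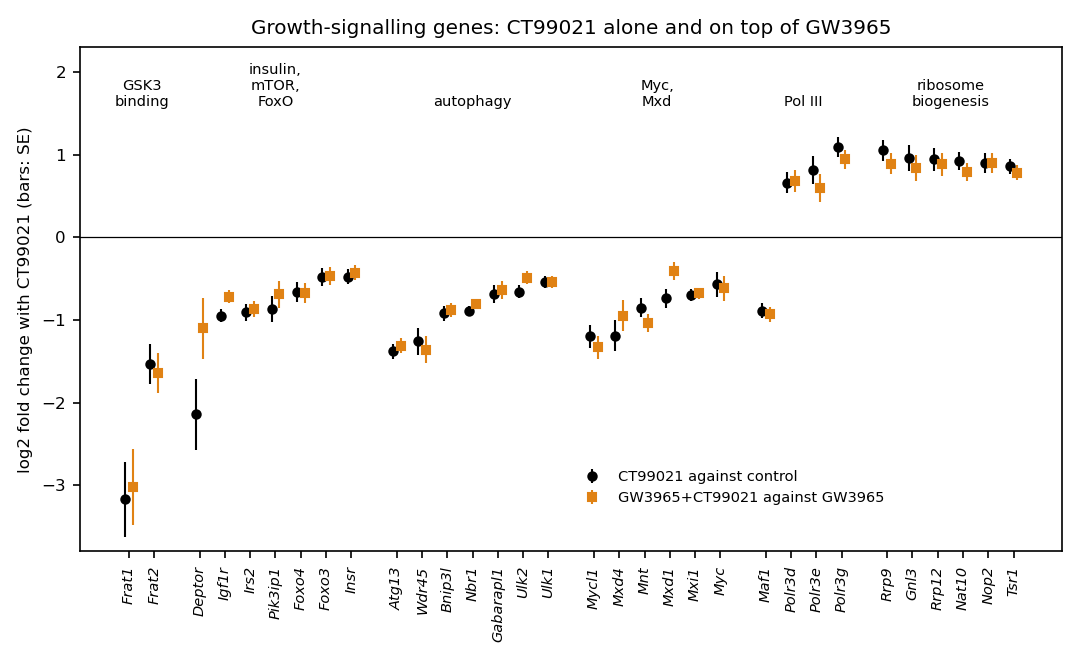
Log2 fold change with its SE for genes of GSK3 binding, insulin, mTOR and FoxO, autophagy, the Myc network, RNA polymerase III and ribosome biogenesis, with CT99021 against control in black and GW3965+CT99021 against GW3965 in orange. The first 4 groups and Maf1 lie below 0, the polymerase III subunits and ribosome biogenesis genes lie above 0, and both contrasts give the same sign for each gene drawn.

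Genes that make ribosomes had the highest share of increases of the 53 lists. Of 89 ribosome biogenesis factors tested, 73 rose (82.0%, against 8.23% of all genes) and 0 fell, 87 had a log2 fold change above 0, and the median was 0.50. The median log2 ratio was 0.51, 0.54 and 0.43 in pairs 1, 2 and 3. In 22 of the 89 all CT99021 libraries lay above all controls, as in 7.22% of all genes tested. With 1 library left out, 44 (without Control 2) to 74 (without CT99021 3) rose, with 54 without CT99021 1, and with library totals as the scaling 61 rose. Without the block 0 passed, and 4 or 3 rose when both libraries numbered 1 or both numbered 2 were left out. Rrp9, a protein of the small nucleolar particle that guides early cuts in ribosomal RNA, was at 28.8, 24.6 and 12.8 CPM in controls and 53.5, 55.7 and 27.6 CPM with CT99021 (1.05 ± 0.13, adjusted p = 0.00149). The library CT99021 3 lay between the controls here, and the ratios within pairs were 1.86, 2.26 and 2.16. Gnl3, also called nucleostemin, went from 67.0, 70.4 and 41.3 CPM to 124, 139 and 84.5 CPM (0.96 ± 0.16, adjusted p = 0.00465), and Rrp12 from 44.4, 45.1 and 19.4 CPM to 81.1, 94.0 and 36.7 CPM (0.94 ± 0.14, adjusted p = 0.00327). Nat10, an acetyltransferase of ribosomal RNA, went from 44.6, 50.6 and 33.6 CPM to 84.1, 97 and 63.2 CPM without overlap (0.92 ± 0.11, adjusted p = 0.00153). Rrp9, Gnl3, Rrp12 and Nat10 passed in every single omission. Gnl3l (-0.06), Tbl3 (0.08), Utp3 (0.19) and Nvl (0.23) were among the members that did not pass. Most of these factors act in the nucleolus.

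Promoters of these factors held the E-box CACGTG, to which Myc with Max and other bHLH factors are known to bind, in 14 of the 74 genes with a promoter in the table (18.9%). It occurred in 7.15% of all 32851 promoters and in 11.1% of the tested genes with one, though only 77.0% of those had one, too few for a firm share. Of all genes called higher that had a promoter there, 202 of 1024 held it (19.7%, with 79.7% matched). The letters read the same on both strands. The motif was chosen after the list's values were seen. Nop2, a methyltransferase of ribosomal RNA, is shown as an example, with the 250 bases before its start at chr6:125131633-125131882 of GRCm38.p6 on the plus strand and the E-box in capitals, 60 bases before the start.
Nop2: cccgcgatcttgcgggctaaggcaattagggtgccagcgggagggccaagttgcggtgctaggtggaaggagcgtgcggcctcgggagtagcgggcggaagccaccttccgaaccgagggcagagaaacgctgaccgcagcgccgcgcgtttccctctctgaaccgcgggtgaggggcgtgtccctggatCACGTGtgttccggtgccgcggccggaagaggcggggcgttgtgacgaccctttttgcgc
Nop2, named after its values were seen, went from 68.0, 66.4 and 38.6 CPM to 131, 135 and 63.3 CPM (0.90 ± 0.12, adjusted p = 0.00178). The ratios within pairs were 1.93, 2.03 and 1.64, and CT99021 3 stayed below 2 of the controls.

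Cytosolic ribosomal protein genes rose by less, and their count moved strongly with single libraries. Of 82 tested, 52 rose (63.4%, against 8.23% of all genes) and 0 fell. All 82 had a log2 fold change above 0, from 0.09 to 0.40 with a median of 0.23. Without Control 1 or Control 2 only 5 rose, 26 without Control 3, 15 without CT99021 1 and 16 without CT99021 2, and with library totals 7. Rpl13, at the top, went from 299, 274 and 207 CPM to 381, 387 and 262 CPM (0.40 ± 0.06, adjusted p = 0.00411). Many of these genes have near-identical pseudogenes, and how reads with several positions were counted is not given in any source used here. Of 22 genes listed for RNA polymerase III, which makes tRNA and the 5S ribosomal RNA, 5 rose (22.7%, against 8.23% of all genes). The only fall on the list (4.55%, against 7.59%) was that of Maf1, the general repressor of the polymerase. Maf1 went from 66.8, 66.9 and 69.6 CPM to 36.1, 38.4 and 34.9 CPM (-0.89 ± 0.09, adjusted p = 3.9e-04) and passed under every alternative, including the fit without the block (0.0167). Its libraries formed 2 tight groups far apart, and it is listed on chromosome 15 at position 76181623 of mm9. Polr3g, a subunit known from stem cells, went the other way, from 7.64, 9.15 and 6.66 CPM to 15.4, 20.3 and 14.4 CPM (1.09 ± 0.12, adjusted p = 9.4e-04, in every single omission). Polr3e rose by 0.81 ± 0.17 (adjusted p = 0.0128, and 0.0554, 0.0658 and 0.06 without Control 1, Control 2 or CT99021 2) and Polr3d by 0.66 ± 0.13 (adjusted p = 0.00958, and 0.0575 without Control 2). The 5 that rose became 2, 1, 3 and 2 without Control 1, Control 2, CT99021 1 and CT99021 2. Chaperones rose in 10 of 22 genes (45.5%, against 8.23% of all genes) and fell in 0. Those that rose were led by the mitochondrial chaperonin pair Hspd1 (0.48 ± 0.07, adjusted p = 0.00258) and Hspe1 (0.47 ± 0.08, adjusted p = 0.00592). The 10 became 3, 2, 5 and 4 without Control 1, Control 2, CT99021 1 and CT99021 2, and 3 with library totals.

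The Myc network, whose activating members drive ribosome genes and whose Mxd and Mnt members oppose them, had no member that rose. Of 12 genes, 6 fell, where 7.59% of all genes did, with a median log2 fold change of -0.45. In 6 of the 12 every CT99021 library lay below every control, as in 7.62% of all genes tested. These include the 5 genes other than Myc that fell. At least 5 fell in each single omission. Mycl1, which encodes L-Myc, went from 95.4, 117 and 78.5 CPM to 36.1, 50.3 and 38.9 CPM (-1.20 ± 0.14, adjusted p = 0.00104). The antagonists Mxd4, from 23.5, 20.3 and 40.3 CPM to 8.45, 9.19 and 19.6 CPM (-1.19 ± 0.19, adjusted p = 0.0041), and Mnt, from 62.1, 53.9 and 60.1 CPM to 32.1, 29.9 and 35.7 CPM (-0.85 ± 0.11, adjusted p = 0.00194), fell too. Mxd1 fell by 0.74 ± 0.11 (adjusted p = 0.0031) and Mxi1, named after its values were seen, by 0.70 ± 0.07 (adjusted p = 5.6e-04). Activators and antagonists of the network therefore fell together, and of the 6 genes called lower only Myc, described above, lost its call when a library was left out.

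**Figure D4:**
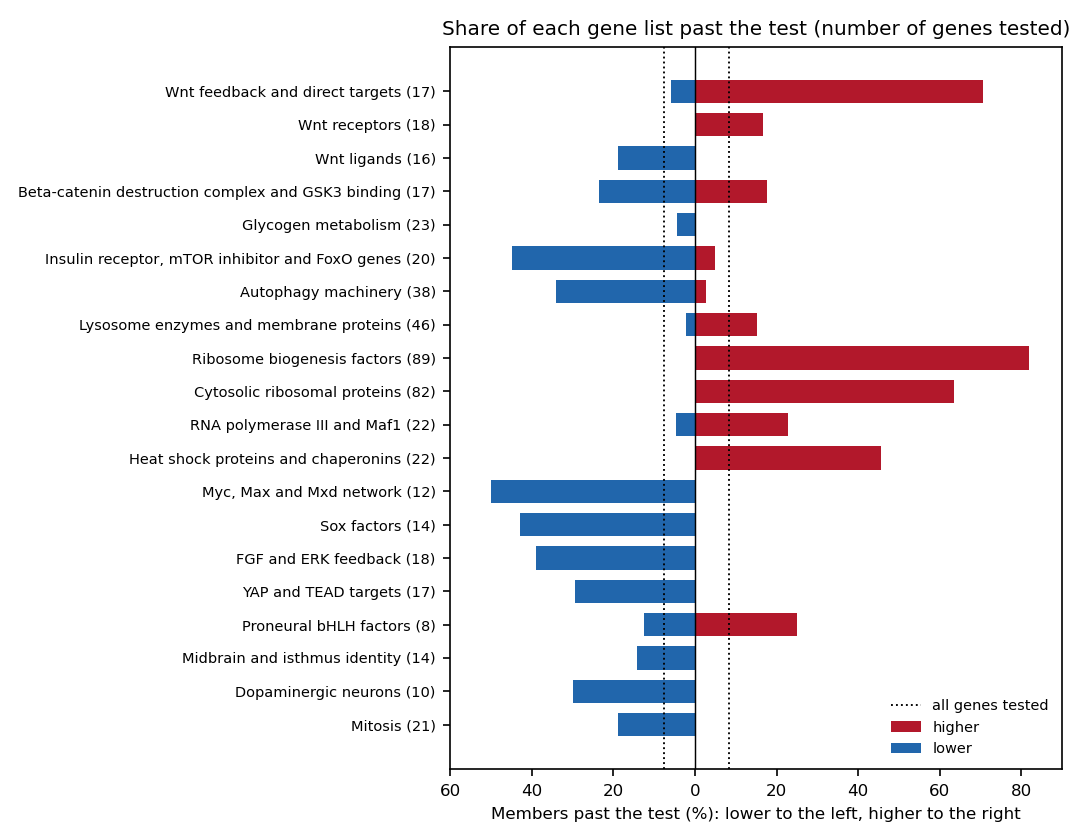
Share of each gene list past the edgeR test, in percent of the members tested (their number in brackets), with falls to the left and increases to the right; the dotted lines give the same for all genes tested, 7.59% and 8.23%. Ribosome biogenesis, Wnt feedback and ribosomal protein genes reach furthest right, and the Myc network, insulin and FoxO genes and Sox factors furthest left.

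Regulators of neural progenitors changed in part. Of 14 Sox genes, 6 fell (42.9%, against 7.59% of all genes) and 0 rose, with a median log2 fold change of -0.45. The count of falls was 3 without Control 1, Control 2 or CT99021 1, and 4 without Control 3. Sox8 went from 26.2, 15.7 and 27.1 CPM to 12.3, 6.98 and 12 CPM (-1.14 ± 0.13, adjusted p = 9.8e-04), with no overlap. Sox3 and Sox1, which like Sox2 mark neural progenitors, fell by 0.99 ± 0.17 (adjusted p = 0.00528) and 0.67 ± 0.09 (adjusted p = 0.002), and Sox8, Sox3 and Sox1 passed in every single omission. Sox2 itself fell by 0.32 ± 0.07 (adjusted p = 0.0188), and missed the threshold without Control 1 (0.0704), Control 2 (0.085), Control 3 (0.0617) or CT99021 1 (0.0624). Sox11, a factor of young neurons and the most abundant member, had a value of -0.02 ± 0.07 and did not pass. Nes, which encodes the progenitor filament nestin, fell by 0.44 ± 0.11 (adjusted p = 0.0294, and 0.127, 0.13, 0.126 and 0.0579 without Control 1, Control 2, CT99021 1 and CT99021 2).

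Feedback genes of FGF and ERK signalling have levels known to follow the activity of that pathway. The list used here also holds FGF ligands and receptors, which are not such feedback genes. Of its 18 genes, 7 fell (38.9%, against 7.59% of all genes), the receptor gene Fgfr3 among them, and 0 rose, with a median of -0.22. The count was 4 without Control 1 or Control 2. Etv1, an ETS factor induced by FGF, went from 55.2, 68.8 and 74.8 CPM to 24.9, 31.8 and 39.7 CPM (-1.05 ± 0.10, adjusted p = 4.5e-04). Dusp6, a phosphatase of ERK, went from 419, 533 and 319 CPM to 251, 324 and 212 CPM (-0.68 ± 0.07, adjusted p = 7.4e-04), and Etv5 from 222, 219 and 201 CPM to 144, 143 and 144 CPM (-0.58 ± 0.06, adjusted p = 8.3e-04). Those 3 passed in every single omission, while the feedback inhibitors Spry2 (-0.16 ± 0.08, adjusted p = 0.179) and Spry4 (-0.05 ± 0.11, adjusted p = 0.825) did not pass. Of 17 genes for YAP and TEAD factors, Lats kinases and YAP and TEAD targets, 5 fell (29.4%, against 7.59% of all genes). The count was 2, 1, 3 and 3 without Control 1, Control 2, CT99021 1 and CT99021 2. Ctgf, a matrix protein and a common readout of YAP, went from 87.1, 46.3 and 38.3 CPM to 19.7, 10.7 and 14 CPM (-1.95 ± 0.37, adjusted p = 0.00844, and 0.0501 without Control 2), and Lats2, a kinase that restrains YAP, fell by 0.59 ± 0.09 (adjusted p = 0.00289) in every omission.

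Proneural factors start neuronal differentiation. Neurog2, which does so in ventral midbrain progenitors, went from 3.66, 5.05 and 2.46 CPM to 12.4, 28.8 and 8.26 CPM (2.04 ± 0.28, adjusted p = 0.00225, in every single omission), so that all CT99021 libraries lay above all controls. Among 16 floor plate and dopaminergic progenitor genes, 1 rose, Neurog2 (6.25%, against 8.23% of all genes). On that list 3 fell (18.8%, against 7.59%), Wnt1, Rspo2 and Lmx1b. Between 1 and 3 fell in the single omissions, 1 of them without Control 2. Rspo2, a secreted enhancer of Wnt signalling, fell by 0.69 ± 0.17 (adjusted p = 0.0235, and 0.129 without Control 2, 0.0634 without Control 3, 0.0922 without CT99021 2 and 0.0754 without CT99021 3). Lmx1b went from 17.2, 18.8 and 20.3 CPM to 10.7, 12.6 and 14.8 CPM (-0.58 ± 0.11, adjusted p = 0.0083, 0.0556 without Control 1 and 0.0532 without Control 2). Foxa2 (-0.25 ± 0.13, adjusted p = 0.215) and Lmx1a (0.19 ± 0.21, adjusted p = 0.559) did not pass, nor did the midbrain factors En1 (0.08 ± 0.08, adjusted p = 0.57) and Otx2 (-0.09 ± 0.09, adjusted p = 0.525). On the list of midbrain and isthmus identity, which holds En1 and Otx2, 2 of 14 genes fell, Gbx2 and Pax7 (14.3%, against 7.59% of all genes), and 0 rose. Between 0 and 3 of that list fell in the single omissions. In 10 genes of dopaminergic neurons, 3 fell (30.0%, against 7.59% of all genes), Th among them, and 0 or 1 fell in each single omission. The largest change on the list went the other way. Aldh1a1 had 18 counts over the controls and 148 with CT99021, a log2 fold change of 3.0, and did not pass. Th, the enzyme of dopamine synthesis, was at 1.58, 0.693 and 1.43 CPM in controls and 0.735, 0.377 and 0.33 CPM with CT99021 (-1.33 ± 0.36, adjusted p = 0.0315, and 0.0703 to 0.12 in the 6 omissions). Nr4a2, a regulator of these neurons, had a value of 0.12 ± 0.17 (adjusted p = 0.68).

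Genes with large falls outside these groups included several that passed both with and without the block. Nipal3, a magnesium transporter relative, fell by 2.32 ± 0.14 (adjusted p = 3.7e-05, from 27.9, 24.9 and 30.6 CPM to 6.43, 3.84 and 6.81 CPM). Slc6a11, a GABA transporter of glia, went from 70, 86.1 and 70.1 CPM to 33.5, 37.4 and 30.0 CPM (-1.16 ± 0.11, adjusted p = 3.1e-04, and 0.0473 without the block). Bckdha, a subunit of the enzyme that breaks down branched-chain amino acids, went from 24.4, 26.6 and 32.4 CPM to 13.4, 14 and 14.1 CPM (-1.0 ± 0.11, adjusted p = 9.7e-04, and 0.0453 without the block). Zswim4 and Fam100a, named after their values were seen, also fell in both fits, by 1.01 ± 0.08 and 1.35 ± 0.15. In each of these 5 genes the CT99021 libraries lay below all controls. The others in both fits were Maf1, Atg13, Fam100b and Gm7367, and the last 2 overlap, so their reads cannot be told apart. Fbxl20, a subunit of a ubiquitin ligase, had an adjusted p of 2.6e-05, with 59.7, 63.3 and 98.4 CPM in controls and 15.7, 19.6 and 28.7 CPM with CT99021 (-1.80 ± 0.09). It passed in every single omission and missed the threshold without the block. Branched-chain amino acid breakdown as a list had 4 of 22 genes lower (18.2%, against 7.59% of all genes) and 1 higher (4.55%, against 8.23%). Auh (-1.14 ± 0.19, adjusted p = 0.00509) and Aldh6a1 (-0.73 ± 0.13, adjusted p = 0.00657) fell beside Bckdha.

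Other lists touch known GSK3 substrates, stress or other cells. Of 23 genes of glycogen metabolism, the pathway for which the kinase was named, 0 rose and 1 fell (4.35%, against 7.59% of all genes). That gene was Phka2 (-0.33 ± 0.10, adjusted p = 0.0438), whose call was lost in 5 omissions at 0.106 to 0.181, all but that of CT99021 3. None of 22 genes of the ATF4 and ER stress response passed in edgeR with all 12 libraries, and 0 did in DESeq2. When only the 6 control and CT99021 libraries entered the fit, 12 of the 22 rose, in a fit where 1315 genes rose in all. With the libraries numbered 3 left out 15 rose, where 12.6% of all genes tested did. Of 21 mitosis genes 4 fell (19.0%, against 7.59% of all genes tested), among them Cenpf (-0.55 ± 0.08, adjusted p = 0.00327), and 19 had values below 0. In 5 of the single omissions 1 fell, while 9 fell without CT99021 3, where 1343 genes fell in all. Without the libraries numbered 3, 15 fell, where 12.4% of all genes tested did. Among lists that mark other cells, 0 of 12 erythroid genes, 0 of 12 forebrain and hindbrain genes and 0 of 12 neural crest and oligodendrocyte genes passed in edgeR or DESeq2. Of 8 endothelial genes 1 fell (12.5%, against 7.59% of all genes), Kdr, whose call was lost in all 6 omissions at 0.0533 to 0.14. Of 15 mesenchymal genes 2 rose, Twist1 and Prrx1 (13.3%, against 8.23% of all genes), 11 had values above 0 and the median was 0.44. With 1 library left out 0 rose, or 1 without CT99021 2, while 5 rose with only the 6 libraries fitted, where 1315 genes rose in all. Their adjusted p was 0.0505 to 0.109 for Twist1 in the 5 omissions that ended its call, all but that of CT99021 2, and 0.0562 to 0.184 for Prrx1 in all 6. In the presence of GW3965, 6 of the 15 rose with CT99021, with a median of 0.84, where 11.8% of all genes rose. The part of mesenchymal cells in the results above was not tested. Of 10 microglial genes 1 fell, where 7.59% of all genes did, and 0 rose. The median was 0.03, and 6 of the 10 had values above 0. The gene that fell was Cx3cr1, from 6.9, 4.06 and 3.25 CPM to 2.11, 1.01 and 1.52 CPM (-1.57 ± 0.27, adjusted p = 0.00609).

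The same inhibitor was also applied in the presence of GW3965, and those 6 libraries share no sample with the comparison above, though they carry the same 3 replicate numbers and enter the same fit. GW3965+CT99021 against GW3965 gave 1843 genes higher (11.8%) and 1375 lower (8.81%). Of the 1285 genes that rose with CT99021 alone, 1278 had the same sign (99.5%) and 1032 were called higher again (80.3% of them and 56.0% of the 1843). Of the 1185 that fell, 1175 had the same sign (99.2%) and 861 were called lower again (72.7% of them and 62.6% of the 1375), and 0 were called in the opposite direction in either set. In the interaction test, which asks whether the response differed between the backgrounds, 0 genes passed in edgeR and 0 in DESeq2, with 523 at an unadjusted p under 0.05 in edgeR. A miss does not show that the responses are equal.

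Counted by list in that contrast, of the 89 ribosome biogenesis factors 79 rose and 0 fell, of the 82 ribosomal proteins 74 rose, of the 17 Wnt feedback genes 13 rose and 1 fell, of the 38 autophagy genes 13 fell and 1 rose, of the 20 insulin, mTOR and FoxO genes 9 fell, and of the 12 Myc network genes 6 fell. Over all genes tested, 11.8% rose and 8.81% fell in that contrast. Maf1 fell from 62.8, 63.1 and 71.9 CPM with GW3965 to 37.1, 31.2 and 35.6 CPM with both compounds (-0.93 ± 0.09, adjusted p = 3.3e-04), and Tcf7 rose from 16.3, 15.5 and 7.95 CPM to 47.5, 51.6 and 23.8 CPM (1.61 ± 0.10, adjusted p = 4.2e-05). Deptor had a smaller value here, -1.10 (adjusted p = 0.0598), and did not pass. Over the 12 Wnt genes the median log2 ratio was 1.65, 1.89 and 1.63 in pairs 1, 2 and 3, and 8 of the 12 again had their smallest ratio in pair 3.

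**Figure D5:**
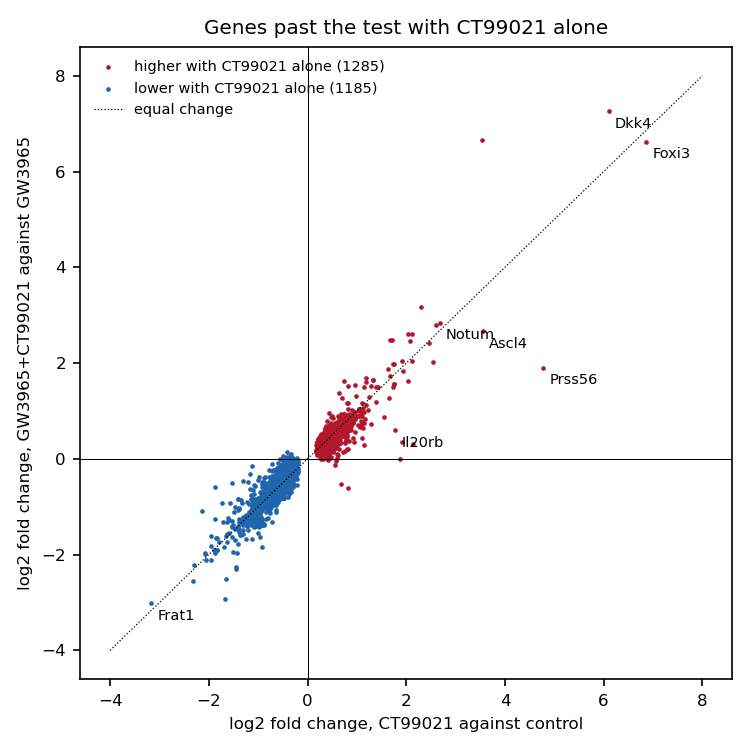
Log2 fold change with CT99021 alone (x axis) against that with CT99021 in the presence of GW3965 (y axis) for the 2470 genes past the test with CT99021 alone. Nearly all points lie in the quadrants of equal sign, 1278 of the 1285 in red and 1175 of the 1185 in blue, and Prss56, Ascl4 and Il20rb lie well under the dotted line of equal change.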

How the data were processed

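Per the labels' protocols, 0.5 µg of column-purified total RNA went into each Illumina TruSeq library. The deposited table gives the authors' raw read counts for the 12 libraries as whole numbers without normalisation. It held 23965 gene rows and 1217 repeat rows, which were left out. Repeat rows took 0.6426% of counts in CT99021 1, the library with high Lars2, and 0.2445% to 0.2885% in the rest of the 6 libraries. The submitters' processing notes name Bowtie and mm9; no source used here gives the counting program, the annotation or the use of strand. A locus suffix marked 1047 gene rows for 303 names, and 107 of these had identical counts at every locus, so values of gene copies, of overlapping genes and of sense-antisense pairs are uncertain.

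All 12 libraries entered 1 quasi-likelihood fit in edgeR 4.0.16 (R 4.3.3) with a mean per group, the replicate number as a block, TMM factors and filterByExpr, leaving 15608 genes. A gene passed at a Benjamini-Hochberg adjusted p under 0.05 over all of them. The block was used because the comparison was defined as paired by replicate number, and the labels do not say what a number stands for. Deviations from the group means correlated across genes at r = 0.63, 0.763 and 0.828 in same-numbered pairs and at -0.677 to 0.186 in the others. Deviations cancel out within a group, so a high r in same-numbered pairs lowers the others in part by construction. CPM were computed from the deposited counts with the TMM factors, and errors of log2 fold changes are SE. Control and CT99021 libraries of 1 group differed by far more than sampling noise (chi-square per gene of 28.2 to 136). Intervals and the floor of 3 counts cover counting error only, as the reads carry no molecular identifiers.

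The members, the 53 gene lists and the tests were chosen with earlier results of these data known. Genes eligible to be named, not all of which are, were the 15 largest changes each way among those at 1 CPM or more that also passed without CT99021 1, up to 4 members of each list per direction, up to 4 abundant members that did not pass, all Wnt feedback genes that rose, and fixed markers; others are said to have been named after their values were seen. Promoters are RefSeq sequences of GRCm38.p6, 250 bases before to 50 after a start, searched for letters on both strands and matched by symbol or a unique older name. The script was tested on simulated data. Alternatives were no block, 6 libraries only, DESeq2 1.42.0, limma 3.58.1 (voom), other scalings and filters, Lars2 left out, and libraries or numbers left out.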

Additional observations from a re-analysis of the deposited data

How the results depend on the processing

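Of 199 genes eligible to be named and past the test, not all of them printed, 0 changed sign under any of 17 alternatives, 86 passed in every omission of 1 library, 127 without CT99021 1, 186 with only the 6 libraries fitted, 189 without libraries numbered 3 and 9 without the replicate block. The count of genes higher was 0 and of genes lower 9 without the replicate block. Leaving out both libraries of a number gave 14 higher and 41 lower (number 1), 17 and 77 (number 2), and 1954 and 1915 (number 3), while omissions of 1 library gave 273 to 1484 higher and 379 to 1343 lower. Library totals gave 641 higher. For GW3965+CT99021 against GW3965, 1 gene was higher and 11 lower without the replicate block, and omissions of 1 library gave 768 to 2124 higher and 628 to 1559 lower. Omissions leave fewer libraries, and the cause of these shifts was not tested. DESeq2 called 1477 higher and 1426 lower, voom 1453 and 1280, RLE factors 1226 and 1226, the 6 libraries alone 1315 and 1368, no low-count filter 908 and 1190, and the table without Lars2 1085 and 1357. The interaction gave 0 genes under each alternative run. With 3 libraries a group, changes near 0.2 on the log2 scale, as in ribosomal proteins, lie at the limit of what these libraries show.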

Other observations

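Genes of lipid and sugar metabolism were among those that rose. Of 16 fatty acid synthesis genes 7 rose (43.8%, against 8.23% of all genes) and 0 fell, led by the desaturase Scd1, from 90.9, 95.2 and 104 CPM to 153, 177 and 149 CPM (0.73 ± 0.10, edgeR adjusted p = 0.00194), and by fatty acid synthase, Fasn (0.61 ± 0.11, adjusted p = 0.00602). Scd1 and Fasn passed with any 1 library left out, while the count of 7 was 4, 3 and 4 without Control 1, Control 2 and CT99021 2. Of 22 glycolysis genes 6 rose (27.3%) and 1 fell. The lactate transporter Slc16a1 went from 39.0, 34.1 and 27.9 CPM to 67.9, 64.0 and 48.9 CPM (0.84 ± 0.11, adjusted p = 0.00199), with all CT99021 libraries above all controls, and Pfkfb3, which makes an activator of phosphofructokinase, rose by 0.62 ± 0.10 (adjusted p = 0.00364). The 6 became 2, 2 and 3 without Control 1, Control 2 and CT99021 2.

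Of 22 genes of p53 and its targets, 5 rose (22.7%, against 8.23% of all genes tested) and 2 fell, Trp53 and Bbc3, while 2 to 6 rose and 0 to 2 fell with 1 library left out. Bbc3, a death gene also called Puma, fell by 0.87 ± 0.25 (adjusted p = 0.0396), a call lost in 5 omissions at 0.0511 to 0.169, all but that of Control 3. Trp53 itself fell by 0.29 ± 0.06 (adjusted p = 0.0123, and 0.0615, 0.0878 and 0.0609 without Control 1, Control 2 and CT99021 2). Pmaip1, a death gene also called Noxa, went from 87.0, 85.5 and 20.1 CPM to 191, 179 and 26.8 CPM (0.91 ± 0.16, adjusted p = 0.00591), a large change in pairs 1 and 2 and a small one in pair 3. Aen, an exonuclease gene, rose by 0.66 ± 0.10 (adjusted p = 0.00366), and both passed with any 1 library left out. Prss56, a protease gene named after its values were seen, reached 14.1 CPM in CT99021 1, the library with high Lars2, against 1.07 and 0.0661 CPM in CT99021 2 and 3 and 0.0989 to 0.159 CPM in the controls, and its adjusted p of 0.0153 became 0.128 without that library, 0.224 without Control 1 and 0.0689 without Control 2.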
